A study of Mus musculus with 10 samples.

Results

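The 40 genes described here encode collagens, other proteins of the extracellular matrix, the enzymes and inhibitors that shape it, and proteins of the fibroblasts, pericytes and smooth muscle cells that make much of it. They were chosen by gene symbol, as a list, and all 40 were found among the 24541 gene symbols of the deposited table. The sequenced RNA came from digested, perfused kidneys, from live cells that magnetic beads had picked out by F4/80, which marks mouse macrophages. There were 4 libraries from mice with 1 copy of Umod changed by the C105F substitution (genotype C105F/+, replicates 1, 2, 4 and 5) and 6 libraries from wild-type littermates (replicates 1 to 6), all on a C57BL/6 background and aged 12 to 16 weeks. The substitution had been introduced by genome editing of C57BL/6J embryos, and the sources used here do not give the number of founders. Umod encodes uromodulin, a protein that the thick ascending limb secretes into urine. The comparison addresses how the mutation bears on gene expression in macrophages of the kidney.

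In the kidney, fibroblasts and pericytes of the interstitium deposit fibrillar collagens, collagen VI, proteoglycans and glycoproteins, while tubule, endothelial and glomerular cells rest on basement membranes built on collagen IV. Matrix metalloproteinases cut these proteins, the TIMP proteins inhibit the metalloproteinases, and lysyl oxidases cross-link collagen and elastin. In kidney fibrosis, fibroblasts and pericytes activated by growth factors such as PDGF lay down excess collagen, and smooth muscle actin, encoded by Acta2, is widely used as a marker of the activated cells.

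Library totals lay between 45380415 and 73643200 estimated counts, and the 40 genes held between 0.231% and 0.449% of them. Levels are given as CPM, a gene's counts relative to the TMM-scaled total of the library, and as FPKM, which also divides by transcript length, where genes are compared with each other. The selection left many tubule transcripts in every library: 13 proximal tubule markers summed to between 31282 and 67657 CPM in mutant libraries and between 29665 and 74303 CPM in wild-type libraries. Adgre1, which encodes F4/80, ranged from 58.2 to 819 CPM in mutant libraries and from 14.0 to 406 CPM in wild-type libraries. Umod itself was at 3306, 4331, 1238 and 1004 CPM in the mutant libraries, against 5784 to 15138 CPM in wild-type libraries (log2 fold change -2.03, adjusted p = 0.184, edgeR), a difference that DESeq2 called and edgeR did not.

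None of the 40 genes passed an adjusted p of 0.05 between mutant and wild-type libraries. The test was the quasi-likelihood F test of edgeR with Benjamini-Hochberg adjustment over all 15123 genes tested, of which 30, or 0.198%, were called, 27 higher in mutant libraries (0.179%) and 3 lower (0.0198%). DESeq2 called 1 of the 40, Col5a2, and limma-voom none. All 40 genes passed the filter on low counts. Log2 fold changes, mutant over wild type, were positive for 13 of the 40 genes and negative for 27. Their median was -0.18, beside 0.01 for all genes tested, of which 48.8% were negative. An unadjusted p under 0.05 was reached by 2 genes, Col5a2 and Sparc, both with negative values; of all genes 5.9% reached it, 3.02% with negative and 2.88% with positive values. In 1 gene, Col5a2, all 4 mutant libraries lay below all 6 wild-type libraries, as they did in 1.02% of all genes, and in none of the 40 did all mutant libraries lie above, beside 0.946% of all genes. At this number of mice a change of moderate size in a single gene could be missed: in simulated libraries with 14830 genes, the same test recovered 48% of genes raised 2-fold and 40% of genes lowered to 0.5 of their level. The changed genes there were drawn at random from genes of all kinds above a minimum mean count. Several of the 40 genes vary widely, such as Col1a1 and Col3a1 with standard errors of 0.998 and 0.990, and these shares do not carry over to them.

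**Figure D1:**
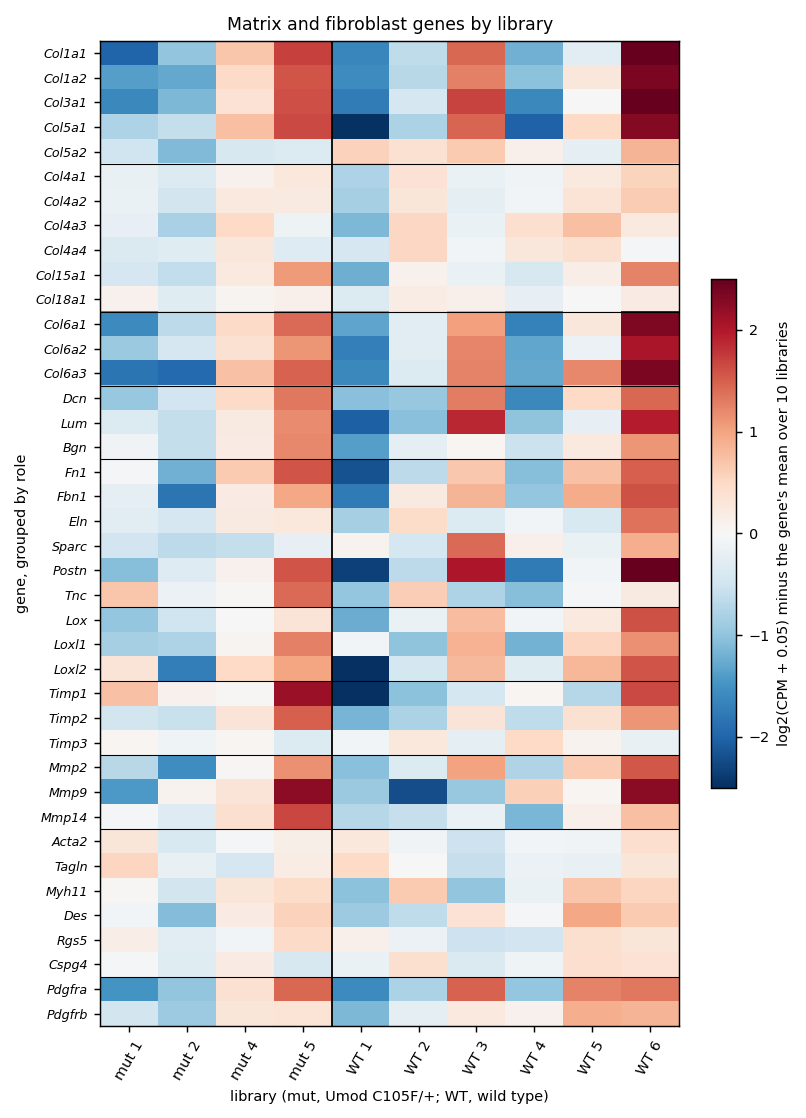
Level of the 40 genes in each library, as log2(CPM + 0.05) minus the mean of the gene over the 10 libraries; columns are the 4 mutant libraries and then the 6 wild-type libraries, and genes are grouped by role. Of the 40 genes, 22 were highest in wild-type replicate 6 and 8 in mutant replicate 5, while Acta2, Tagln, Rgs5, Cspg4, Col4a4, Col18a1 and Timp3 varied little. The share of all genes highest in these libraries was not examined, so the counts are not a trait of this list.

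**Figure D2:**
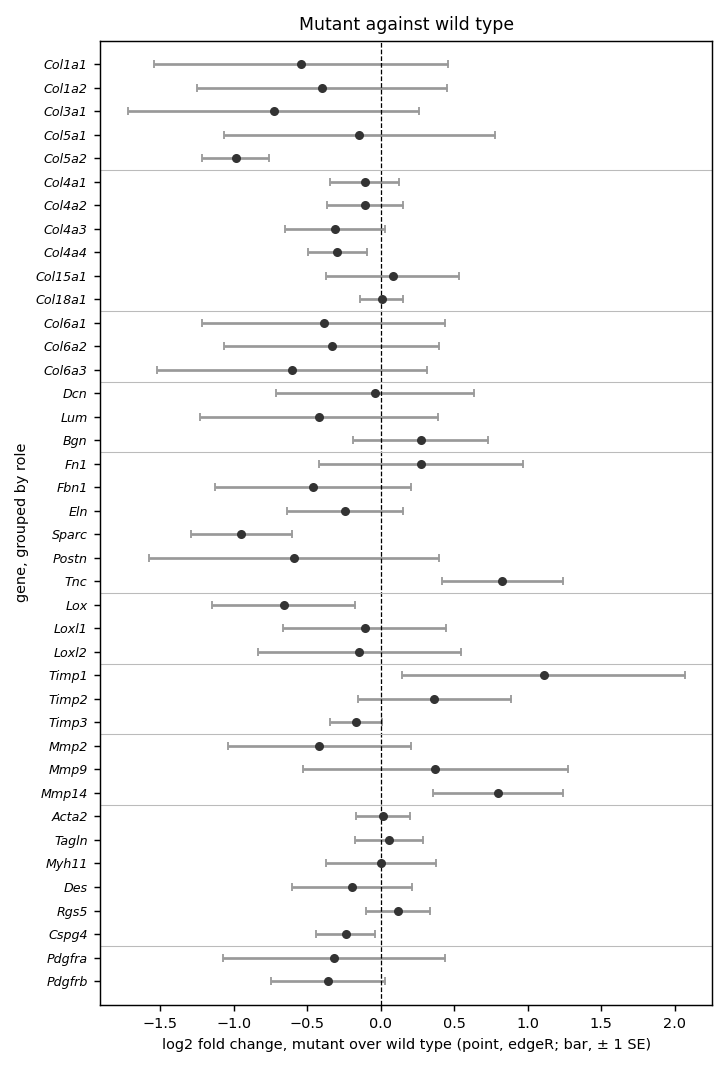
Log2 fold change of each of the 40 genes, mutant over wild type, from edgeR; points are estimates and bars are 1 standard error to each side. Col5a2, at -0.99, lies farthest from 0 in units of its standard error, and the interstitial collagens, Postn, Timp1 and Mmp9 have wide bars.

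Among the fibrillar collagens, Col5a2 was the gene with the smallest p of all 40. It encodes the second chain of collagen V, a minor fibrillar collagen that joins collagen I fibrils and helps set their diameter, and lies at chr1:45374331-45503282 on mm10. Col5a2 was at 15.2, 9.86, 16.3 and 16.8 CPM in the 4 mutant libraries, against 18.0 to 38.3 CPM, with a median of 30.0 CPM, in the 6 wild-type libraries. The highest mutant library was thus below the lowest wild-type library, wild-type replicate 5. The means were 14.6 ± 3.20 CPM in mutant libraries (SD, n = 4) and 28.9 ± 7.33 CPM in wild-type libraries (SD, n = 6), a log2 fold change of -0.99 with a standard error of 0.228. The edgeR test gave an unadjusted p of 0.00120 and an adjusted p of 0.209, so the difference did not pass. DESeq2 called it, with an adjusted p of 0.0102, where it called 0.853% of genes, and over all alternatives the log2 fold change stayed between -1.09 and -0.80 and the adjusted p between 0.0102 and 0.526. In libraries of mixed cells, fewer cells of a type and less RNA per cell cannot be told apart. The sum of the thick ascending limb and distal convoluted tubule markers was separated in the same way. These 10 genes, Umod among them, summed to between 3134 and 9330 CPM in mutant libraries and between 11382 and 24863 CPM in wild-type libraries. Taken singly, 2 of the 10, Umod being 1 of them, had all mutant libraries below all wild-type libraries, and the list had a median log2 fold change of -0.55. Egf, the epidermal growth factor gene of these segments, was the called gene of that list (log2 fold change -2.77, adjusted p = 0.0345 in edgeR). The part of these segments in the Col5a2 difference was not tested.

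The other 4 fibrillar collagen genes differed far more between mice of the same genotype than between genotypes. They are Col1a1 and Col1a2, which encode the chains of collagen I, the main collagen of scars; Col3a1, which encodes collagen III; and Col5a1, which encodes the first chain of collagen V. Col3a1, named here with Col1a1 and Col5a1 after its values were seen, was at 7.74, 10.8, 30.6 and 73.0 CPM in the mutant libraries, against 6.99 to 170 CPM, with a median of 20.8 CPM, in wild-type libraries. All mutant libraries lay within the wild-type range, with mutant replicate 5 high among mutants and wild-type replicates 3 and 6, at 77.0 and 170 CPM, high among wild types. The ratio of the highest to the lowest library was 29.9 for Col1a1, 24.4 for Col3a1 and 30.6 for Col5a1, whereas it was 3.89 for Col5a2. Log2 fold changes were -0.54 for Col1a1 (SE 0.998), -0.40 for Col1a2 (SE 0.852), -0.73 for Col3a1 (SE 0.990) and -0.15 for Col5a1 (SE 0.921), each smaller than its standard error. All 5 fibrillar genes had negative values, with a median of -0.54.

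The sign of these 4 values rested on single libraries. Without wild-type replicate 6, log2 fold changes were 0.52 for Col1a1, 0.35 for Col1a2, 0.20 for Col3a1 and 0.56 for Col5a1. Without wild-type replicates 3 and 6 they were 1.35, 0.95, 1.12 and 1.35 in the same order of genes, and without mutant replicate 5 they were -1.38, -1.22, -1.63 and -0.79. Col5a2 stayed negative in each of these fits. Over all 40 genes, 27 values were negative with all libraries, 12 without wild-type replicate 6, and 36 without mutant replicate 5. No member was called in any of these fits.

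**Figure D3:**
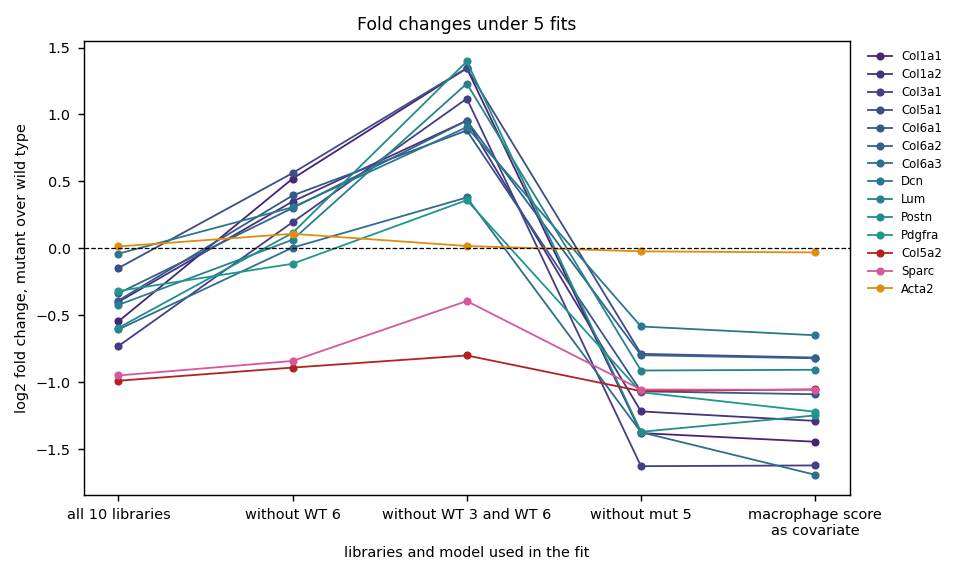
Log2 fold change of 14 genes, mutant over wild type, in 5 edgeR fits: all 10 libraries, without wild-type replicate 6, without wild-type replicates 3 and 6, without mutant replicate 5, and with the macrophage marker score as covariate. Col5a2 and Sparc stayed below 0 in all 5 and Acta2 stayed near it, whereas the interstitial collagens, Dcn, Lum and Postn were below 0 with all 10 libraries and above it without wild-type replicates 3 and 6.

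The 2 chains of collagen V did not move in proportion. The FPKM ratio of Col5a1 to Col5a2 ran from 0.0663 to 0.331 in mutant libraries and from 0.00852 to 0.227 in wild-type libraries, a 38.8-fold spread over the 10 libraries. For the chains of collagen I the ratio of Col1a1 to Col1a2 ran from 0.317 to 0.603 in mutant libraries and from 0.335 to 0.710 in wild-type libraries, a 2.24-fold spread. Col5a2 was more abundant per length than its partner in every library, with a mean of 3.47 FPKM, against 0.448 FPKM for Col5a1.

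**Figure D4:**
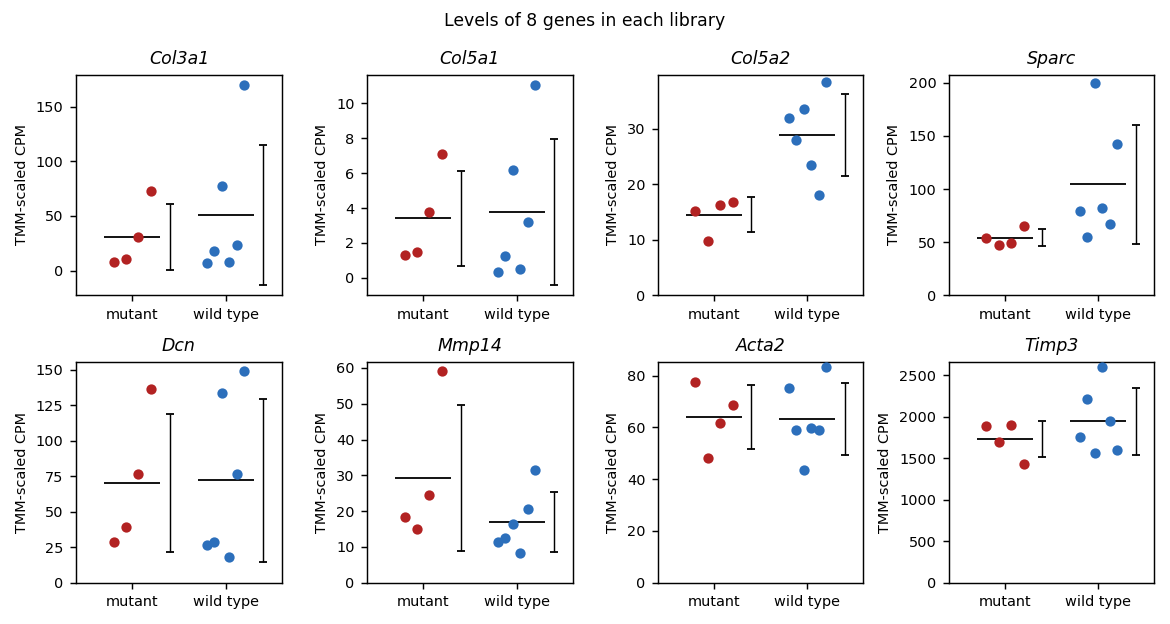
TMM-scaled CPM of 8 genes in each mutant (left) and wild-type (right) library; points are libraries, horizontal lines are means and the bar beside each group spans 1 SD to each side. Only Col5a2 of these 8 has every mutant library below every wild-type library, and Col3a1, Col5a1 and Dcn spread widely within both groups.

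The basement membrane and multiplexin collagens were more even between libraries, and none passed the test. Col4a1 and Col4a2 encode the chains of the collagen IV found in most basement membranes, and Col4a3 and Col4a4 encode chains of the glomerular basement membrane that podocytes make. Col4a1 was at 122, 110, 150 and 168 CPM in mutant libraries, against 81.7 to 205 CPM, with a median of 148 CPM, in wild-type libraries (log2 fold change -0.11, SE 0.235). The mutant libraries all lay within the wild-type range. Col4a2 had the same log2 fold change of -0.11 (SE 0.259), and the FPKM ratio of Col4a1 to Col4a2 stayed between 1.41 and 1.69 in mutant libraries and between 1.47 and 1.65 in wild-type libraries, a 1.20-fold spread.

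The 2 genes lie head to head on chromosome 8, transcribed in opposite directions, and their annotated spans share 22 bases. Their promoter windows, each from 250 bases before to 50 after the gene start, are shown because the pair kept the most constant ratio of the 6 chain pairs compared. They are the RefSeq windows of build GRCm38.p6, at chr8:11312777-11313076 on the minus strand for Col4a1 and chr8:11312555-11312854 on the plus strand for Col4a2. Col4a4 and Col4a3 are also neighbours, with 71 bases between their spans, and the Col4a4 window, chr1:82586800-82587099 on the minus strand, is shown for comparison. Capitals mark CCAAT and GGGCGG, which are the letters of the CCAAT box and the GC box, or their reverse complements ATTGG and CCGCCC; the motifs do not overlap each other.
Col4a1: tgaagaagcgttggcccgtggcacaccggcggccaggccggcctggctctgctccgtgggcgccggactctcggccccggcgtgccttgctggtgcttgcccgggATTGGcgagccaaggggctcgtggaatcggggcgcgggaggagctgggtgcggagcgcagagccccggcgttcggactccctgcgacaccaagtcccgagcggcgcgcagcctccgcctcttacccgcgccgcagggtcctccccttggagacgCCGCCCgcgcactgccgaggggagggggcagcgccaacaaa
Col4a2: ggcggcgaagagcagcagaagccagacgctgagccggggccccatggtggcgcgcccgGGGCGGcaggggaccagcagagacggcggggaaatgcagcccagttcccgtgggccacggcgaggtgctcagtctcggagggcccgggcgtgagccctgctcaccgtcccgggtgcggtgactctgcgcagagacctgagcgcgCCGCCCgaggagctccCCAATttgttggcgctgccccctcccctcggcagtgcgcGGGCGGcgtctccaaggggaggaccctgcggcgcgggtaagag
Col4a4: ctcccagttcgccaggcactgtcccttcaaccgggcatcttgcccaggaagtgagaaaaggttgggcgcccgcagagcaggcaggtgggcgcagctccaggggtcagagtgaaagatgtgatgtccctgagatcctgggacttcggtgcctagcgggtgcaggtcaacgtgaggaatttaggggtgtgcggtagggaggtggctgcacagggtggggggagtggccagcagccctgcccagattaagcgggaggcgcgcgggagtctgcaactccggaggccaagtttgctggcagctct
The last 78 bases of the Col4a1 and Col4a2 windows are the 2 strands of the same stretch. It holds 1 GGGCGG, which is counted in both windows, and Col4a2 holds 3 in all. CCAAT occurs once in each of these windows, and the Col4a4 window holds neither motif. CCAAT was found in 37.4% and GGGCGG in 35.7% of all 32851 windows of this length, so these letters are common and mark no site by themselves. Of the 40 genes 25 have a window, and 9 and 15 genes held CCAAT and GGGCGG in any window. These are counts of genes and not of windows, so they are not set against the shares above.

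Col4a4 was at 88.6, 91.5, 139 and 90.4 CPM in mutant libraries, against 85.0 to 163 CPM, with a median of 124 CPM, in wild-type libraries (log2 fold change -0.30, SE 0.202, unadjusted p = 0.171 in edgeR). Mutant replicate 4 stood above the other mutant libraries, and all 4 lay within the wild-type range. Col4a3 averaged 73.6 ± 27.2 CPM in mutant and 91.3 ± 34.0 CPM in wild-type libraries (SD, n = 4 and 6; log2 fold change -0.31, SE 0.340). The ratio of Col4a3 to Col4a4 in FPKM ran from 0.443 to 0.722 in mutant libraries and from 0.381 to 0.799 in wild-type libraries. Summed podocyte markers varied too, between 104 and 356 CPM in mutant libraries and between 91.5 and 680 CPM in wild-type libraries, and their part in the level of these 2 genes was not tested.

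Col18a1, which encodes the multiplexin collagen that carries endostatin, was the steadiest of the 40 genes, with a ratio of 1.45 between the highest and the lowest library. It was at 235, 177, 229 and 237 CPM in mutant libraries, against 172 to 250 CPM, with a median of 228 CPM, in wild-type libraries (log2 fold change 0.01, SE 0.143). Mutant replicate 2 was the low one of its group, and the groups overlapped. With a mean of 42.8 FPKM, Col18a1 was the most abundant collagen of the list per length. Col15a1, its relative, was lower and less even, at 12.6 ± 7.14 CPM in mutant and 12.0 ± 7.18 CPM in wild-type libraries (SD, n = 4 and 6; log2 fold change 0.08, SE 0.455).

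Collagen VI, which forms beaded filaments beside cells, and the small leucine-rich proteoglycans, which bind collagen fibrils, followed the uneven pattern of the interstitial collagens. Log2 fold changes were -0.39 for Col6a1, -0.33 for Col6a2 and -0.60 for Col6a3, with standard errors from 0.732 to 0.919, and the highest library exceeded the lowest by between 13.8-fold and 20.7-fold. Without wild-type replicate 6 the 3 values were 0.40, 0.30 and 0.01. Dcn, which encodes decorin, was at 28.4, 39.5, 76.6 and 136 CPM in mutant libraries, against 18.0 to 149 CPM, with a median of 52.8 CPM, in wild-type libraries. Mutant replicate 5 and wild-type replicates 3 and 6 were the high libraries, and the means were 70.2 ± 48.6 CPM in mutant and 72.1 ± 57.7 CPM in wild-type libraries (log2 fold change -0.04, SE 0.670). Lum, which encodes lumican, had a log2 fold change of -0.42 (SE 0.811), and Bgn, which encodes biglycan, one of 0.27 (SE 0.458). At a mean of 39.5 FPKM, only Timp3 and Col18a1 exceeded Dcn per length among the 40 genes.

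Of the matrix glycoproteins, Sparc reached the second smallest p of the 40. It encodes osteonectin, a secreted protein that binds collagen and calcium, and lies at chr11:55394159-55420080 on mm10. Sparc was at 53.9, 47.5, 49.5 and 65.4 CPM in mutant libraries, against 55.4 to 200 CPM, with a median of 80.7 CPM, in wild-type libraries. Mutant replicates 1, 2 and 4 lay below every wild-type library, mutant replicate 5 above 1 of them, and wild-type replicates 3 and 6 were far above the rest. The log2 fold change was -0.95 with a standard error of 0.343, and edgeR gave an unadjusted p of 0.0188 and an adjusted p of 0.701. Without wild-type replicates 3 and 6 the log2 fold change was -0.39, and over all alternatives it stayed between -1.09 and -0.39, with no call.

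Tnc, which encodes tenascin-C, a glycoprotein made in wounds, had the largest positive value among the glycoproteins. It was at 6.67, 3.69, 4.15 and 10.9 CPM in mutant libraries, against 1.93 to 6.31 CPM, with a median of 3.19 CPM, in wild-type libraries (log2 fold change 0.83, SE 0.412). Mutant replicates 1 and 5 lay above all wild-type libraries and the other mutants within their range, and edgeR gave an unadjusted p of 0.0702. Without mutant replicate 5 the value was 0.43. Fn1, which encodes fibronectin, had a log2 fold change of 0.28 (SE 0.694), Fbn1, which encodes fibrillin 1, one of -0.46 (SE 0.665), Eln, which encodes elastin, one of -0.25 (SE 0.394), and Postn, which encodes periostin, one of -0.59 (SE 0.987). Among the genes detected in every library, which leaves out Timp1, Postn was the most uneven, with 34.0-fold between the highest and the lowest library and a mean level of 2.20 ± 1.88 CPM in mutant and 3.31 ± 3.97 CPM in wild-type libraries (SD, n = 4 and 6).

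The 3 lysyl oxidase genes were low and not called. Lox was at 2.03, 2.83, 3.97 and 5.03 CPM in mutant libraries, against 1.66 to 12.2 CPM, with a median of 4.27 CPM, in wild-type libraries (log2 fold change -0.66, SE 0.488, unadjusted p = 0.203 in edgeR). The mutant libraries lay within the wild-type range, and the value was 0.01 without wild-type replicates 3 and 6. Log2 fold changes were -0.11 for Loxl1 (SE 0.556) and -0.15 for Loxl2 (SE 0.691).

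Timp3 was by far the most abundant of the 40 genes, with a mean of 392 FPKM. It encodes the metalloproteinase inhibitor that binds to matrix, and was at 1893, 1696, 1898 and 1438 CPM in mutant libraries, against 1563 to 2606 CPM, with a median of 1851 CPM, in wild-type libraries. Mutant replicate 5 lay just below the lowest wild-type library and the other mutant libraries within the wild-type range (log2 fold change -0.17, SE 0.179, unadjusted p = 0.362 in edgeR). Timp3 lies within the span of Syn3, a neuronal gene at 7.09 CPM on average, so reads of that gene could add little to it. Timp2, which encodes a soluble inhibitor that also takes part in activating MMP2, averaged 27.6 FPKM. It was at 59.7, 56.0, 103 and 232 CPM in mutant libraries, against 36.8 to 176 CPM, with a median of 78.1 CPM, in wild-type libraries (log2 fold change 0.37, SE 0.519). Mutant replicate 5 was the highest library, and without it the value was -0.26.

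Timp1, an inhibitor gene that is strongly induced in many models of kidney injury, was the lowest of the 40 genes in CPM. It was at 0.442, 0.269, 0.254 and 1.26 CPM in mutant libraries, against 0 to 0.880 CPM, with a median of 0.149 CPM, in wild-type libraries. Its 116 counts in all mutant libraries and 104 in all wild-type libraries gave a log2 fold change of 1.11 with a standard error of 0.960 (unadjusted p = 0.273, edgeR). The groups overlapped, with the highest value of each in the library with the highest Adgre1. Timp1 lies within the span of Syn1, which averaged 0.107 CPM, so its level is less certain.

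Among the metalloproteinases, Mmp14 had the smallest p. It encodes a membrane-bound collagenase that activates MMP2, and was at 18.2, 15.0, 24.6 and 59.2 CPM in mutant libraries, against 8.41 to 31.6 CPM, with a median of 14.5 CPM, in wild-type libraries. Mutant replicate 5 was above every wild-type library and the other mutants were inside their range (log2 fold change 0.80, SE 0.442, unadjusted p = 0.100 in edgeR). Without mutant replicate 5 the value was 0.19, and with the macrophage marker score as covariate it was 0.28. Mmp2, which encodes a gelatinase of fibroblasts, had a log2 fold change of -0.42 (SE 0.622). Mmp9, which encodes a gelatinase of leukocytes, had one of 0.37 (SE 0.901), at 2.59 ± 2.77 CPM in mutant and 1.997 ± 2.44 CPM in wild-type libraries (SD, n = 4 and 6). Of 10 neutrophil markers, 4 (Ly6g, Ngp, Camp and Mpo) were at 0 in all libraries, and the list summed to between 2.19 and 24.7 CPM in mutant and between 1.09 and 13.7 CPM in wild-type libraries; its part in the Mmp9 level was not tested.

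The contractile and mural genes, which smooth muscle cells and pericytes express, had a median log2 fold change of 0.01, and none passed the test. Acta2, which encodes smooth muscle actin, was at 77.4, 48.2, 61.5 and 68.7 CPM in mutant libraries, against 43.7 to 83.3 CPM, with a median of 59.4 CPM, in wild-type libraries. All mutant libraries lay within the wild-type range, and the log2 fold change of 0.01 (SE 0.186) ran from -0.10 to 0.12 over all alternatives. Tagln, which encodes transgelin, an actin-binding protein of smooth muscle, was at 64.5, 39.1, 33.0 and 50.6 CPM in mutant libraries, against 29.6 to 62.6 CPM, with a median of 42.3 CPM, in wild-type libraries (log2 fold change 0.06, SE 0.231). Mutant replicate 1 was marginally above the wild-type range and the others were inside it. Tagln shares 95 bases of its span with Pcsk7, which averaged 35.3 CPM, so its level is less certain.

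Rgs5, a regulator of G protein signalling typical of pericytes, was at 91.6, 68.1, 77.7 and 114 CPM in mutant libraries, against 56.8 to 107 CPM, with a median of 81.1 CPM, in wild-type libraries (log2 fold change 0.12, SE 0.214). Cspg4, which encodes the pericyte proteoglycan NG2, was at 13.7, 11.5, 16.2 and 10.6 CPM in mutant libraries, against 11.0 to 18.8 CPM, with a median of 15.6 CPM, in wild-type libraries (log2 fold change -0.24, SE 0.200, unadjusted p = 0.257 in edgeR). Only mutant replicate 5 left the wild-type range, upwards in Rgs5 and downwards in Cspg4. Myh11, which encodes smooth muscle myosin, had a log2 fold change of 0.00 (SE 0.372) and Des, which encodes desmin, one of -0.20 (SE 0.410).

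The PDGF receptors mark fibroblasts (Pdgfra) and pericytes as well as fibroblasts (Pdgfrb). Pdgfrb was at 9.22, 6.67, 15.6 and 16.0 CPM in mutant libraries, against 5.73 to 23.6 CPM, with a median of 14.2 CPM, in wild-type libraries (log2 fold change -0.36, SE 0.388, unadjusted p = 0.375 in edgeR). All mutant libraries were within the wild-type range. Pdgfra, at 6.74 ± 5.99 CPM in mutant and 8.40 ± 6.41 CPM in wild-type libraries (SD, n = 4 and 6), had a log2 fold change of -0.32 (SE 0.756).

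How the 40 genes vary with the macrophage RNA in a library was examined next. A macrophage marker score, the mean over 15 macrophage genes of log2 CPM centred on each gene, was at -0.63, -0.68, 0.88 and 2.48 in the mutant libraries and ran from -1.93 to 1.61 in wild-type libraries. In wild-type libraries it rose with each replicate number, so there the score and that order cannot be told apart. Pearson's r between the score and the log2 level was positive for 37 of the 40 genes over the 10 libraries, beside 52.3% of all 15123 genes. A permutation p under 0.05 went with a positive r in 27 of the 40, beside 23.5% of all genes, and with a negative r in none, beside 19.7%. After Benjamini-Hochberg adjustment over all 15123 genes, 11 of the 40 had a permutation p under 0.05, all with positive r, beside 16.9% of all genes. By Spearman's rho, 13 had an unadjusted permutation p under 0.05 with positive rho, beside 20.5% of all genes. An adjusted permutation p under 0.05 was reached by 6 (Timp2, Bgn, Mmp9, Col15a1, Mmp14 and Loxl2), all with positive rho. The share of all genes that reached it, 19.8%, counts both signs of rho. The largest r belonged to Timp2 (r 0.93, adjusted permutation p = 0.00246; rho 0.88, adjusted permutation p = 0.0213), followed by Bgn (r 0.90, rho 0.83), Mmp9 (r 0.88, rho 0.79), Col15a1 (r 0.87, rho 0.79), Mmp14 (r 0.85, rho 0.81), Fn1 (r 0.84, rho 0.77) and Timp1 (r 0.82, rho 0.73). Col1a2, Des, Col5a1 and Loxl2 were the other 4, with r from 0.75 to 0.77.

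Some of these relations rested on mutant replicate 5 and wild-type replicate 6, the libraries farthest from the median score. Without both, Timp2, Bgn, Fn1 and Des, 4 of the 11 genes, had an exact permutation p under 0.05 and the other 7 did not, and r was 0.80 for Timp2, 0.74 for Bgn and 0.58 for Mmp14. Within the 6 wild-type libraries r was 0.88 for Timp2, with an unadjusted exact permutation p of 0.0236. There Bgn, Mmp9, Col15a1, Fn1, Timp1, Des and Loxl2 had r from 0.81 to 0.87, each with an unadjusted exact permutation p under 0.05. The rest of the 11, Mmp14, Col1a2 and Col5a1, had r of 0.72, 0.76 and 0.70, with exact permutation p of 0.107, 0.0889 and 0.132. Adjusted over the 40 genes, no exact permutation p passed 0.05 within wild type. With 6 libraries this p has few possible values, and a single gene could hardly pass after adjustment, so no conclusion is drawn from that. The 4 mutant libraries are too few for a correlation. Genes at the other end were Timp3 (r -0.39, rho -0.22), Col5a2 (r -0.14, rho -0.18), Tagln (r -0.05, rho -0.04), Col4a4 (r 0.03, rho 0.15), Sparc (r 0.06, rho -0.02) and Cspg4 (r 0.07, rho 0.07). The libraries share their selection, and whether the matrix RNA comes from the macrophages or from cells that accompany them was not tested.

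**Figure D5:**
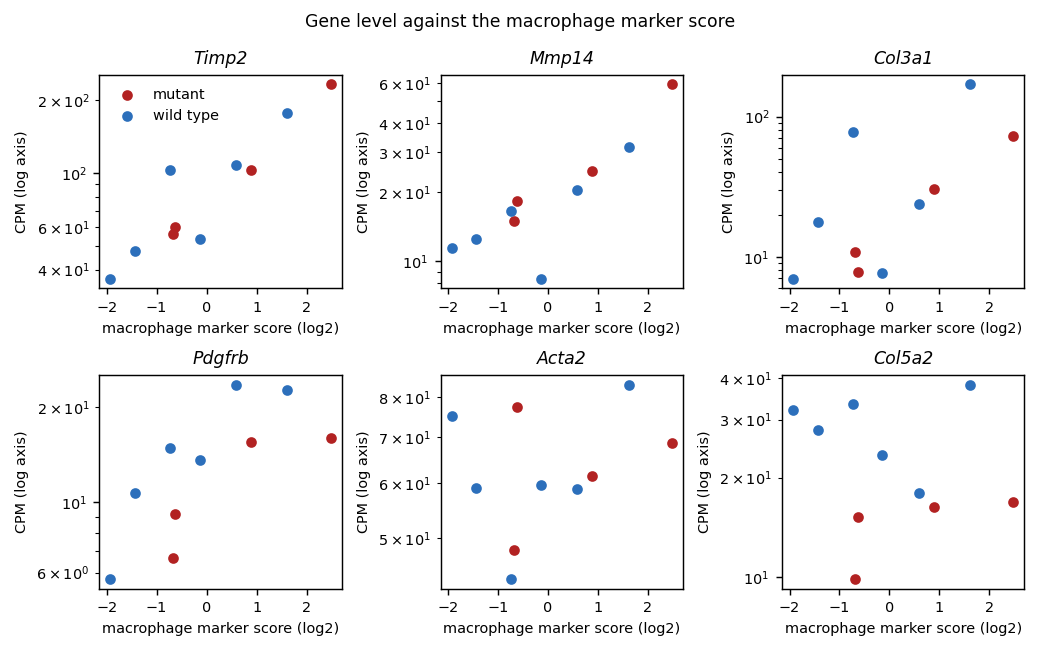
CPM (log axis) of 6 genes against the macrophage marker score of each library; red points are the 4 mutant and blue points the 6 wild-type libraries. Timp2 and Mmp14 climb with the score, Acta2 and Col5a2 do not, and in the Col5a2 panel the mutant points lie below the wild-type points.

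With the macrophage score in the edgeR model as a covariate, most of the 40 values were lower than without it. The median log2 fold change was then -0.51, beside -0.02 for all genes in that fit, with 36 of 40 negative and none called. An unadjusted p under 0.05 was reached by 7 of the 40 genes, Col1a2, Col5a2, Col6a3, Lox, Mmp2, Pdgfrb and Sparc, all with negative values. Of all genes in that fit 12.3% reached it, a share that counts both signs.

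No gene of 5 lists of matrix genes outside the 40 passed the test. Of their 116 genes 112 were tested, and 8 had an unadjusted p under 0.05 in edgeR, where 5.9% of all genes did. DESeq2, which called 0.853% of all genes, called 1 of them, Loxl4, and limma-voom none. Laminins and other basement membrane genes had a median log2 fold change of -0.16, with 18 of 22 negative. The 3 smallest p in this list belonged to Frem2, an anchoring protein of epithelial basement membranes (-0.60), Agrn, which encodes agrin (-0.25), and Tinagl1 (-0.24). Enzymes that make and process collagen had a median of -0.01 over 22 tested genes.

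Loxl4, a lysyl oxidase outside the 40, had the smallest p of these enzymes. It was at 10.6, 12.8, 1.64 and 2.90 CPM in mutant libraries, against 0.390 to 2.49 CPM, with a median of 1.69 CPM, in wild-type libraries (log2 fold change 2.22, SE 0.638; the edgeR test gave an adjusted p of 0.461). Mutant replicates 1 and 2, the mutants with the lowest macrophage scores, were the high ones, and mutant replicate 4 was inside the wild-type range. Plod2, a collagen lysyl hydroxylase, had a log2 fold change of -0.34 and Plod3 one of 0.35.

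Matrix receptors had a median log2 fold change of -0.14 over 21 genes. Itgb6, which encodes the epithelial integrin subunit that binds latent TGF-beta, had the smallest p, at 89.1, 113, 59.0 and 45.4 CPM in mutant libraries, against 96.0 to 157 CPM, with a median of 122 CPM, in wild-type libraries (log2 fold change -0.72, SE 0.244, edgeR adjusted p = 0.699). Mutant replicate 2 alone reached the wild-type range. Sdc1, which encodes syndecan 1, had a log2 fold change of 0.33 and Itgb8 one of -0.50. Matricellular and other matrix genes had a median of -0.09 over 25 genes, with Spp1, which encodes osteopontin, at 0.38, Fmod at -0.62 and Tgfbi at 1.10 as the 3 with the smallest p.

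Other matrix proteases and their inhibitors had a median log2 fold change of 0.00 over 22 tested genes. Plaur, the urokinase receptor, was at 9.77, 6.67, 6.34 and 10.9 CPM in mutant libraries, against 3.26 to 8.16 CPM in wild-type libraries (log2 fold change 0.87, SE 0.304, edgeR adjusted p = 0.699). Mutant replicates 1 and 5 lay above the wild-type range and the other mutant libraries within it. Plau, urokinase itself, had a log2 fold change of -0.57, and Adamts1, a secreted metalloproteinase named here outside the rule of 3 genes a list, one of 0.91.

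No gene of 2 further marker lists for these cells was called by edgeR, DESeq2 or limma-voom. Of 15 other fibroblast genes, 14 were tested, with a median log2 fold change of -0.11. Col8a1, a short-chain collagen, had the smallest p, at 7.95, 4.56, 3.49 and 5.49 CPM in mutant libraries, against 6.76 to 15.6 CPM in wild-type libraries (log2 fold change -0.91, SE 0.295, edgeR adjusted p = 0.659). Ly6a and Vim followed with log2 fold changes of -0.30 and 0.31. The 15 other mural and juxtaglomerular genes had a median of -0.09, and Abcc9, Kcnj8 and Smtn had -0.58, -0.37 and -0.23. Endothelial markers, a further source of collagen IV, had a median of -0.10 and summed to between 402 and 604 CPM in mutant libraries and between 316 and 894 CPM in wild-type libraries. Medians of the remaining marker lists were 1.07 for macrophages, -0.20 for the proximal tubule, -0.55 for the thick ascending limb and distal convoluted tubule, 0.09 for the collecting duct, -0.54 for podocytes, -0.95 for neutrophils and -0.32 for platelets, and Egf was the sole gene of these lists that edgeR and limma-voom called, while DESeq2 called Egf and Umod. The neutrophil and platelet medians rest on 5 tested genes each, of 10 and 8, and their sums do not follow them. Neutrophil markers summed to between 2.19 and 24.7 CPM in mutant and between 1.09 and 13.7 CPM in wild-type libraries. Platelet markers summed to between 14.4 and 87.9 CPM in mutant and between 7.44 and 30.3 CPM in wild-type libraries.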

How the data were processed

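The submitters' processing notes name StringTie 1.3.4d, Bowtie2 2.3.4.1, HISAT2 2.1.0, Trimmomatic 0.38, DESeq2 and build mm10. The sources used here do not give what each tool did or whether counting used the strand. The authors deposited 1 table with an estimated count and an FPKM value for each RefSeq transcript and library, beside transcript lengths. The deposited estimated counts are whole numbers not scaled for depth. In each library 1 factor links them to FPKM times length, with an error of at most 1 read or 0.5% in 100% of the transcripts that have 20 counts or more. FPKM, scaled by the authors for length and depth, was summed per gene symbol and served only to compare genes with each other.

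Estimated counts of 36779 transcripts were summed per symbol, filtered with filterByExpr, scaled by TMM and tested in edgeR 4.0.16 (R 4.3.3) by the robust quasi-likelihood F test on all 10 libraries without covariates. Adjusted p is Benjamini-Hochberg over 15123 genes, with 0.05 as the threshold for a call, and each standard error was derived from the F statistic. CPM are TMM-scaled. The macrophage score used log2 CPM with a prior count of 2. Correlations used 100000 permutations over 10 libraries, with adjustment over all genes tested, and exact enumeration over 8 or 6. Each library is a separate mouse, and no 2 libraries of a group were duplicates (smallest chi-square per gene 74.9).

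The 40 genes, the lists and the tests were chosen with earlier results of these data known. Values in every library are given for the 10 genes with the smallest p and the 10 with the highest mean FPKM, and in the matrix, fibroblast and mural lists called genes or else the 3 with the smallest p are named; of the remaining marker lists medians and calls are given. A gene that this rule names is not reported here. Simulated counts were used to check the test, where 8.28% of its calls were unchanged genes. Alternatives were other scalings, filters, DESeq2 1.42.0, limma 3.58.1, a replicate block, marker scores as covariates, single transcripts and leaving out each library. Promoter windows are from RefSeq. For 5 list genes an older symbol was used.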

Additional observations from a re-analysis of the deposited data

Results flagged for a closer look

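Each of the 40 genes was examined in both groups for a library far from the others of its group, on log2(CPM + 0.05), with Dixon's criterion. Of 80 groups examined, 2 held such a library, and chance would mark about 1 in 20. Col4a4, a chain of the glomerular basement membrane, was at 139 CPM in mutant replicate 4, while the other mutant libraries lay between 88.6 and 91.5 CPM. Col18a1, the endostatin-bearing collagen, was at 177 CPM in mutant replicate 2, while the other mutant libraries lay between 229 and 237 CPM. Both values lie within the range of the wild-type libraries.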

How the results depend on the processing

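No member was called under any alternative but DESeq2, which called 1 (Col5a2). Col5a2 and Sparc kept a negative value and an unadjusted p under 0.05 in every alternative. The number of genes called among all tested, 30, was 143 with DESeq2, 53 with the macrophage score as covariate and 14 to 24 without single libraries. The median of the members, -0.18, was -0.058 with limma-voom, -0.51 with the macrophage score and -0.35 with the proximal tubule score as covariate, and ran from -0.46 (without mutant replicate 5) to 0.12 (without wild-type replicate 6). Log2 fold changes changed sign in 1 to 15 members when 1 library was left out: across those fits Col1a1 ran from -1.38 to 0.52, Eln from -0.40 to 0.15, Bgn from -0.19 to 0.61, Timp2 from -0.26 to 0.69 and Mmp9 from -0.70 to 1.32. With the macrophage score Timp2 was at -0.23, and the most abundant single transcript of Postn was at 0.42. The cause was not tested.

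Mutant and wild-type libraries share the replicate numbers 1, 2, 4 and 5, but deviations from the group means of same-numbered libraries correlated at 0.43, 0.28, 0.02 and 0.44. Only numbers 1 and 5 correlated best with their own partner, so the numbers were not taken to pair the mice. The macrophage score rose with each replicate number in wild-type libraries, from -1.93 to 1.61. In mutant libraries it was -0.63 and -0.68 in replicates 1 and 2, and 0.88 and 2.48 in replicates 4 and 5. The block and the score thus cannot be fully told apart, and whether the numbers share anything else was not tested. With the replicate block, which leaves out wild-type replicates 3 and 6, 217 genes were called, no member was, and the members' median was 0.30; without the block the same 8 libraries gave 21 calls and a median of 0.37. An unadjusted edgeR p under 0.05 was reached by 11 members with the block, where 16.2% of all genes, of both signs, reached it. These were Bgn, Col5a1, Col5a2, Col6a2, Dcn, Fn1, Lum, Mmp14, Postn, Sparc and Timp2. Among them Col5a2 and Sparc were negative, while Col5a1, Col6a2, Dcn, Lum, Mmp14 and Postn were positive. In total 21 members changed sign with the block and 18 without it. Those that turned positive and moved by more than the standard error of the 10-library value were, with the block, Col1a1 (0.81), Col1a2 (0.61), Col3a1 (0.78), Col5a1 (1.49), Col6a1 (0.67), Col6a2 (0.91), Dcn (0.86), Lum (1.21), Fbn1 (0.23), Eln (0.17), Postn (1.35), Lox (0.029) and Loxl2 (0.60). In the same 8 libraries without the block they were Col1a1 (1.35), Col1a2 (0.95), Col3a1 (1.12), Col5a1 (1.35), Col6a1 (0.88), Col6a2 (0.95), Col6a3 (0.38), Dcn (0.91), Lum (1.23), Postn (1.40), Lox (0.013), Loxl1 (0.45) and Mmp2 (0.29). The cause was not tested. Timp1, the lowest member, is limited by depth.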
